A study of Mus musculus with 20 samples.

Results

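The MEIS, PBX and PKNOX genes encode homeodomain transcription factors of the TALE class, which carry a short loop extension within the homeodomain. Of 24528 genes in the deposited table, 8 are described here: Meis1, Meis2, Meis3, Pbx2, Pbx3, Pbx4, Pknox1 and Pknox2. They were chosen by name, and the choice was made with the lower Meis2 of mutant neocortex already known. All 8 passed the filter on low values in both regions.

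The libraries hold total RNA without ribosomal RNA from the hippocampus and neocortex of C57BL/6J mice at 18 months. TDP-43 KQ/KQ mice (KQ below) are homozygous for a knock-in substitution that mimics acetylation of the RNA-binding protein TDP-43. It sits in the endogenous Tardbp gene and so is present in every cell, together with silent changes that serve for genotyping. Their controls were TDP-43 wt mice (WT). The hippocampus held 5 KQ libraries (3 females, 2 males) and 4 WT libraries (3 females, 1 male), and the neocortex 6 KQ libraries (3 females, 3 males) and 5 WT libraries (3 females, 2 males). Each female library of the hippocampus has a counterpart in neocortex with its genotype, number and litter, so 6 females probably gave both tissues, which the labels do not state.

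MEIS and PKNOX proteins bind DNA as partners of PBX proteins, and the partnership helps to bring PBX into the nucleus. In the hindbrain and limb these complexes act with HOX proteins. The forebrain largely lacks HOX proteins, and there Meis2 is known from the lateral ganglionic eminence, the embryonic source of striatal projection neurons and olfactory bulb interneurons, where its protein works with PAX6 and DLX proteins. Retinoic acid induces Meis1 and Meis2 in several tissues.

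The values are log2-like, freed of sex and litter, and set for each gene to a mean of 0 over the neocortex KQ libraries. A value of -1 therefore lies 1 log2 unit below neocortex KQ, and levels cannot be compared between genes. Depth is not given by the table, so the error of each value is that between libraries. Tardbp, the targeted gene, ranged from -0.16 to 0.16 in hippocampus KQ against -1.03 to -0.62 in hippocampus WT, and from -0.098 to 0.13 in neocortex KQ against -1.07 to -0.90 in neocortex WT. Its KQ libraries lay above its WT libraries in each region, so the genotype labels stand, apart from those of WT male 1 of the neocortex and KQ female 2. WT male 1 is the only library of its litter, and the litter of KQ female 2 holds only its library in each region. Removal of litter fits their values to their groups, so the check does not reach them. Apart from that of WT male 1, the region labels stand as well. Of 8 hippocampal neuron markers 8 were higher in hippocampus (median difference 2.27, against 0.0098 over all 17863 genes tested in both regions).

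The genes lie on 6 chromosomes of GRCm38. Meis2 (chr2:115861264-116067537) and Pbx3 (chr2:34171457-34372045) share a chromosome, as do Pknox1 (chr17:31564722-31607693) and Pbx2 (chr17:34592259-34597400). Meis1 is at chr11:18880428-19019651, Meis3 at chr7:16174012-16186510, Pbx4 at chr8:69832476-69872292 and Pknox2 at chr9:36890979-37147342. Annotated genes overlap Meis1 (Gm16141), Meis2 (G630016G05Rik) and Pknox2 (Gm34538, Gm34652). Strand use in the counting was not given in the sources used here, so reads of these overlaps may be shared.

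RefSeq promoter windows of 300 bases (GRCm38.p6, 250 before and 50 after an annotated start site) were held for 5 of the 8 genes, namely Meis1, Meis2, Meis3, Pbx2 and Pbx4. They were searched on both strands for TGACAG, the core motif known for MEIS and PKNOX proteins, and for TGATTG, a core motif known for PBX proteins. Each motif was searched for alone, although the end of TGATTG and the start of TGACAG share the letters TG. TGACAG was in none of the 5 windows and in 19.2% of all 32841 windows. TGATTG was in 1 of the 5, that of Pbx4, where it begins at position -199 from the start site, and in 14.0% of all windows. The 250 bases before the start site are shown for Meis2 and Meis1, whose values differ most between regions among the genes with a window, and for Pbx4, the gene with a match and little difference. They are written 5′ to 3′ on the strand of the gene, with the motif in capitals.
Meis2 (chr2:116064620-116064869, minus strand): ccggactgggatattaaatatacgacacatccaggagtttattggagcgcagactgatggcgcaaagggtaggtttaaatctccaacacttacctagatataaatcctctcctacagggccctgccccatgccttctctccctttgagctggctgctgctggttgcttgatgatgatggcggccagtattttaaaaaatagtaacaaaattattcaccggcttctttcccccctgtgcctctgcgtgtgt
Meis1 (chr11:19018970-19019219, minus strand): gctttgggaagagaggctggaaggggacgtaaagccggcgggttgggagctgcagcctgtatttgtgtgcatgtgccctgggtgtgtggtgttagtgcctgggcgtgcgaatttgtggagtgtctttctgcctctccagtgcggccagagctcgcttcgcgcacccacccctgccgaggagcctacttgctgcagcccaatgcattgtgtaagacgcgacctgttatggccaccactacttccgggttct
Pbx4 (chr8:69832374-69832623, plus strand): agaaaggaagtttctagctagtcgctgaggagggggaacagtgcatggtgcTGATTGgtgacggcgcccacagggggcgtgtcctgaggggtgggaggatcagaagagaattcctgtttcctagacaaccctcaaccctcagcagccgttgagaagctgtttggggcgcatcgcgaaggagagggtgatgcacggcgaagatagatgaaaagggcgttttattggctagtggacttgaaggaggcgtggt
GC content over the 300 bases was 51.0% for Meis2, 58.3% for Meis1, 59.3% for Pbx4, 66.7% for Meis3 and 76.0% for Pbx2, against a median of 52.7% over all windows. A match is only a description of the letters, and windows at other start sites of these genes were not searched.

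The comparison of hippocampus with neocortex asked where in the forebrain the family is used. Meis2, Pbx3, Meis1, Pknox2 and Meis3 were lower in hippocampus, 5 of 8 genes, and none was higher. Over all 17863 genes 46.9% passed the same test, 22.9% as lower and 23.9% as higher in hippocampus, so a call alone is common in this comparison. The difference was taken as hippocampus minus neocortex averaged over the genotypes in limma, with p adjusted after Benjamini and Hochberg over all genes. The choice of Meis2 by its genotype difference bears least on this average. WT male 1 of the neocortex, alone in its litter, does not enter it, and removal of litter left its deposited values at the WT neocortex mean. For 4 genes (Meis1, Meis2, Pbx3 and Pknox2) every hippocampus library lay below every neocortex library, which held for 9.23% of all genes.

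Meis2 showed the largest region difference of the family. In hippocampus its values were -1.15, -0.93 and -1.11 in KQ females, -0.87 and -1.28 in KQ males, -0.93, -0.73 and -0.87 in WT females and -1.05 in the WT male. In neocortex they were -0.0081, -0.14 and 0.051 in KQ females, 0.0090, 0.024 and 0.065 in KQ males, 0.42, 0.49 and 0.44 in WT females and 0.47 and 0.55 in WT males. The regions are thus far apart, and within the neocortex the genotypes form separate bands. The fitted difference was -1.22 ± 0.059 (SE, adjusted p = 2.28e-10), and only 0.442% of all genes had a difference further below 0. Within genotypes it was -1.07 in KQ and -1.37 in WT, and the difference between these values was not tested because Meis2 was chosen on its neocortex values.

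**Figure D1:**
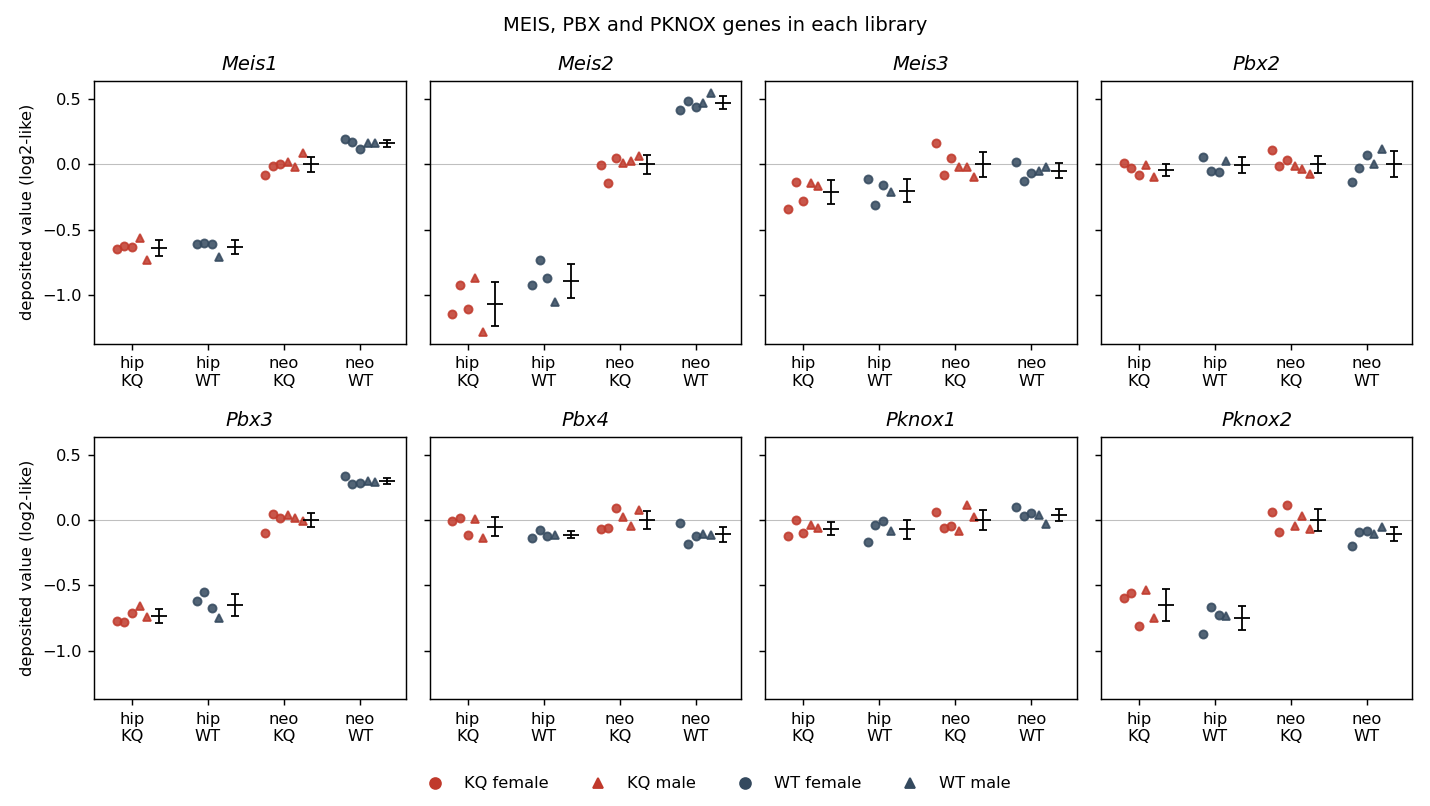
Deposited values (log2-like, 0 being the mean of neocortex KQ) of the 8 genes in each library, for hippocampus (hip) and neocortex (neo) with KQ left of WT. Circles are females, triangles males, and bars the mean and SD of each group. Meis1, Meis2, Pbx3 and Pknox2 are lower in every hippocampus library, and Meis2, Pbx3 and Meis1 split by genotype in neocortex.

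Meis1, known for its part in blood stem cells and leukaemia as well as in development, was lower in every hippocampus library than in any neocortex library. Hippocampus values were -0.65, -0.63 and -0.63 in KQ females, -0.56 and -0.73 in KQ males, -0.61, -0.60 and -0.61 in WT females and -0.71 in the WT male. Neocortex values ran from -0.078 to 0.091 in KQ and from 0.12 to 0.19 in WT. The fitted difference was -0.72 ± 0.032 (adjusted p = 1.06e-10). Within genotypes it was -0.64 in KQ and -0.79 in WT, and the difference between these values was not tested. Meis3, the remaining MEIS gene, differed less, at -0.18 ± 0.046 (adjusted p = 0.00425). Its libraries overlapped, with hippocampus medians of -0.17 in KQ and -0.19 in WT against neocortex medians of -0.018 in KQ and -0.048 in WT. Meis3 was no longer called in the WT contrast alone (-0.15, adjusted p = 0.115).

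Among the PBX genes only Pbx3, whose product is a DNA-binding partner of MEIS proteins, was called between regions. In hippocampus it stood at -0.78, -0.78 and -0.71 in KQ females, -0.66 and -0.75 in KQ males, -0.62, -0.55 and -0.67 in WT females and -0.75 in the WT male. In neocortex it stood at -0.10, 0.046 and 0.014 in KQ females, 0.037, 0.012 and -0.0092 in KQ males, 0.33, 0.27 and 0.28 in WT females and 0.30 and 0.29 in WT males. This is the order of groups seen for Meis2, with a fitted difference of -0.84 ± 0.033 (adjusted p = 2.94e-11). Pbx2, a widely expressed PBX gene, differed by -0.025 ± 0.040 (95% interval -0.11 to 0.059, adjusted p = 0.630). Pbx4, known in mouse mainly from the testis, differed by -0.026 ± 0.037 (interval -0.10 to 0.052, adjusted p = 0.589). For both, any region difference within the interval is several times smaller than that of Pbx3.

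The PKNOX genes, also called Prep genes, encode the other partners of PBX and gave different region patterns. Pknox2 stood at -0.60, -0.56 and -0.81 in hippocampus KQ females, -0.54 and -0.75 in KQ males, -0.88, -0.66 and -0.73 in WT females and -0.73 in the WT male. Its neocortex libraries ran from -0.092 to 0.11 in KQ and from -0.20 to -0.056 in WT. The fitted difference was -0.65 ± 0.048 (adjusted p = 3.36e-08), with -0.65 in KQ and -0.64 in WT. Pknox1, expressed in most tissues, differed by -0.088 ± 0.037 (interval -0.17 to -0.0093) and missed the threshold (adjusted p = 0.0627), though it passed in 8 of 28 alternative fits.

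The female pairs set hippocampus against neocortex at a shared genotype, number and litter. They come from the libraries already in the fit, so they describe its differences pair by pair and are no separate support. Meis2 was lower in hippocampus in 6 of 6 pairs, by -1.14, -0.79 and -1.16 in KQ and by -1.35, -1.22 and -1.31 in WT. Pbx3 was lower in 6 of 6, by -0.68, -0.83 and -0.73 in KQ and by -0.95, -0.83 and -0.96 in WT. Meis1 ranged over the 6 pairs from -0.80 to -0.57, Pknox2 from -0.92 to -0.47 and Meis3 from -0.50 to -0.057, all lower in 6 of 6. Pbx2 and Pknox1 were lower in 5 of 6 and Pbx4 in 2 of 6, with medians of -0.057, -0.064 and 0.030.

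**Figure D2:**
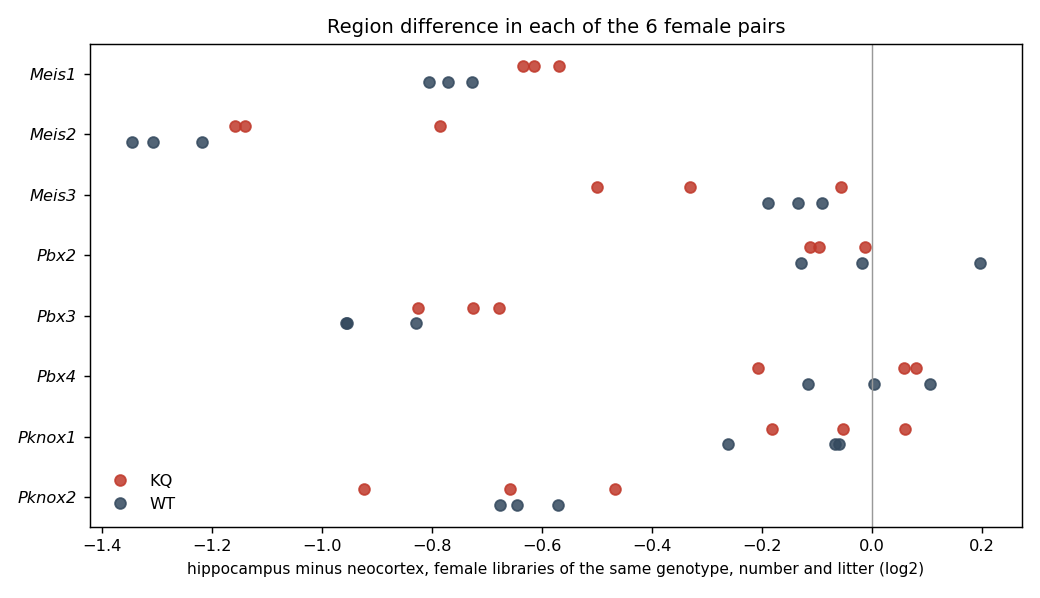
Hippocampus minus neocortex (log2) in the 6 pairs of female libraries, for each gene, with KQ above WT. Points left of the line at 0 are lower in hippocampus, as in all pairs for Meis1, Meis2, Meis3, Pbx3 and Pknox2.

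The comparison of KQ with WT neocortex asked what the acetylation-mimic substitution does to the family. This comparison was used to choose the genes, so its values are a description with no test. Meis2 was -0.47 ± 0.048 (SE, interval -0.58 to -0.36) in KQ relative to WT, Pbx3 was -0.32 ± 0.052 (-0.44 to -0.20) and Meis1 was -0.18 ± 0.054 (-0.30 to -0.057). For these 3 genes every KQ library lay below every WT library, a separation seen towards lower values in 4.29% of the 18329 genes tested. KQ female 2 and WT male 1 are alone in their litters in this region and do not enter the fitted differences. The deposited values of WT male 1 equal the WT mean, so that library adds nothing to the separation. A threshold of 0.05 on adjusted p was passed by 0.0382% of genes in the comparison. Tissue was bulk, so fewer cells of a type and less RNA per cell cannot be told apart.

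The other 5 genes did not separate the genotypes in neocortex. Meis3 was 0.093 ± 0.064, Pbx2 -0.0059 ± 0.071, Pbx4 0.11 ± 0.061, Pknox1 -0.013 ± 0.061 and Pknox2 0.13 ± 0.057 in KQ relative to WT. Pbx4 ran from -0.069 to 0.088 in KQ and from -0.18 to -0.022 in WT, and Pknox2 from -0.092 to 0.11 in KQ and from -0.20 to -0.056 in WT, so both overlap. The median over the 8 genes was -0.0092, beside -0.0037 over all genes, so the lower values were those of Meis2, Pbx3 and Meis1 and not of the family as a whole.

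In hippocampus the same genotype comparison was not used for the choice and was tested, although the female mice are probably those of the neocortex. None of the 8 genes passed the threshold in limma, nor did any of the 18310 genes tested (0% called, 12.1% with an unadjusted p under 0.05), and a fit of both regions called 0.386% of genes and none of the 8. The hippocampus fit did not call Tardbp either (0.86 ± 0.13, adjusted p = 0.204), although its KQ and WT libraries do not overlap there. With 3 residual degrees of freedom, a missed threshold does not show that a gene is unchanged. The paper reports differentially expressed genes in each region with DESeq2. The lowest unadjusted p of the 8 genes was 0.202 (Pknox2) in the hippocampus fit and 0.0825 (Meis2) in the fit of both regions. Meis2 had a difference of -0.17 ± 0.13 (adjusted p = 0.617) in KQ relative to WT, and its interval of -0.48 to 0.14 holds both 0 and the value of the neocortex. KQ female 2 and WT female 3, alone in their litters here, do not enter the fit. KQ and WT overlapped, from -1.28 to -0.87 in KQ and from -1.05 to -0.73 in WT.

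Pbx3 differed in hippocampus by -0.070 ± 0.079 (interval -0.26 to 0.12, adjusted p = 0.735) and Meis1 by 0.010 ± 0.075 (-0.17 to 0.19, adjusted p = 0.966). The intervals of Pbx3 and Meis1 leave out -0.32 and -0.18, their fitted neocortex values. They overlap the neocortex intervals, which are -0.44 to -0.20 for Pbx3 and -0.30 to -0.057 for Meis1. With genotype alone the neocortex value of Meis1 was -0.16, within its hippocampus interval. The difference between the regions itself was not tested. Pknox2 was at 0.13 ± 0.093 (adjusted p = 0.591), Pbx4 at 0.072 ± 0.071 (0.697), Pbx2 at -0.038 ± 0.071 (0.849), Meis3 at -0.034 ± 0.083 (0.886) and Pknox1 at 0.0060 ± 0.069 (0.979), each with the adjusted p. Choroid plexus markers, 7 of 7, were above 0 in this comparison (median 1.67, none called), and their mean per library ran from 0.28 to 3.65 in KQ and from -0.10 to 2.05 in WT. Their part in the hippocampus results was not tested.

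**Figure D3:**
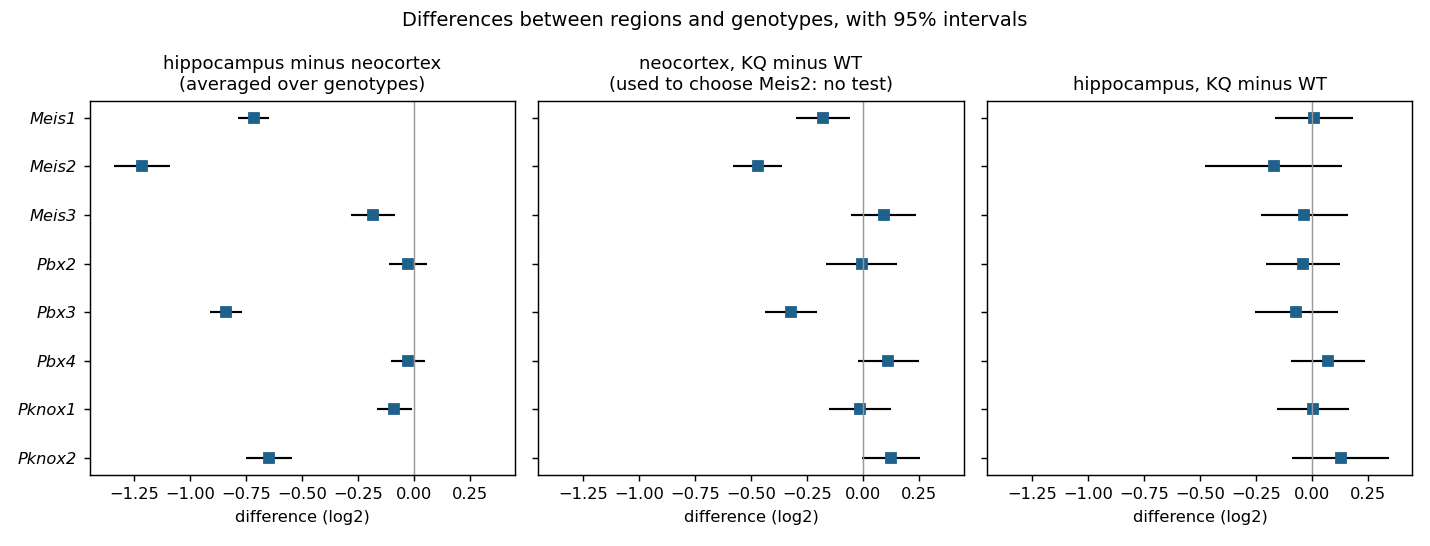
Fitted difference (log2, squares) with its 95% interval for each gene, from left to right for hippocampus minus neocortex, KQ minus WT in neocortex and KQ minus WT in hippocampus. Meis2, Pbx3 and Meis1 lie furthest left in the first and second panels, and all 8 intervals hold 0 in the third.

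The striatal projection neuron markers, genes such as Penk (enkephalin) and Drd1 (a dopamine receptor), were, like Meis2, Pbx3 and Meis1, lower in hippocampus, as were other neuron markers. In hippocampus relative to neocortex 20 of 21 were lower and none was higher (median -1.67), with Penk at -2.91 ± 0.085 (adjusted p = 1.31e-12) and Drd2, another dopamine receptor, at -1.92 ± 0.060 (2.93e-12). Of the neocortical excitatory neuron markers 10 of 12 were lower and 2 higher in hippocampus (median -0.91), of the interneuron markers 8 of 14 lower and 3 higher (median -0.16), and of the olfactory bulb and neuroblast markers 5 of 8 lower and 2 higher (median -0.51). In neocortex 21 of 21 striatal markers lay below 0 in KQ relative to WT, though none was called (median -0.31, against -0.0037 over all genes, of which 51.5% lay below 0). Penk was at -0.67 ± 0.10 (adjusted p = 0.118) and Drd2 at -0.33 ± 0.084 (0.217). In hippocampus 12 of the 21 lay below 0 and 9 above in KQ relative to WT, none called, where 51.7% of all genes lay below 0.

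The mean of these 21 markers per neocortex library was 0.046, -0.16 and 0.037 in KQ females and -0.076, 0.050 and 0.10 in KQ males, against 0.065, 0.39 and 0.42 in WT females and 0.32 and 0.42 in WT males. The 0.32 of WT male 1 is the WT mean, set by removal of litter. WT female 1 thus lay within the KQ range of the markers. It had the highest WT neocortex means of interneuron (0.15), neocortical excitatory neuron (0.00035) and hippocampal neuron markers (0.072). The same held for olfactory bulb and neuroblast (0.32), choroid plexus (0.82) and thalamus markers (0.24). Vascular and meningeal markers were higher in WT male 2 (0.060, against 0.0021 in WT female 1). In WT female 1 Meis2 was 0.42, Pbx3 0.33 and Meis1 0.19. In its litter the KQ female had a striatal marker mean of 0.046 with Meis2 at -0.0081, Pbx3 at -0.10 and Meis1 at -0.078. Without WT female 1 the neocortex difference in KQ relative to WT was -0.48 for Meis2, -0.30 for Pbx3 and -0.17 for Meis1. The lowest striatal marker mean and the lowest Meis2 of the neocortex were both in KQ female 2. Its litter holds only its library in each region, so removal of litter set its deviations in the regions equal and opposite. Its neocortex values therefore cannot be read apart from its hippocampus values. WT female 1 and KQ female 2 are single libraries of the comparison used to choose the genes. The part of striatal cells in the Meis2, Pbx3 and Meis1 values was not tested.

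**Figure D4:**
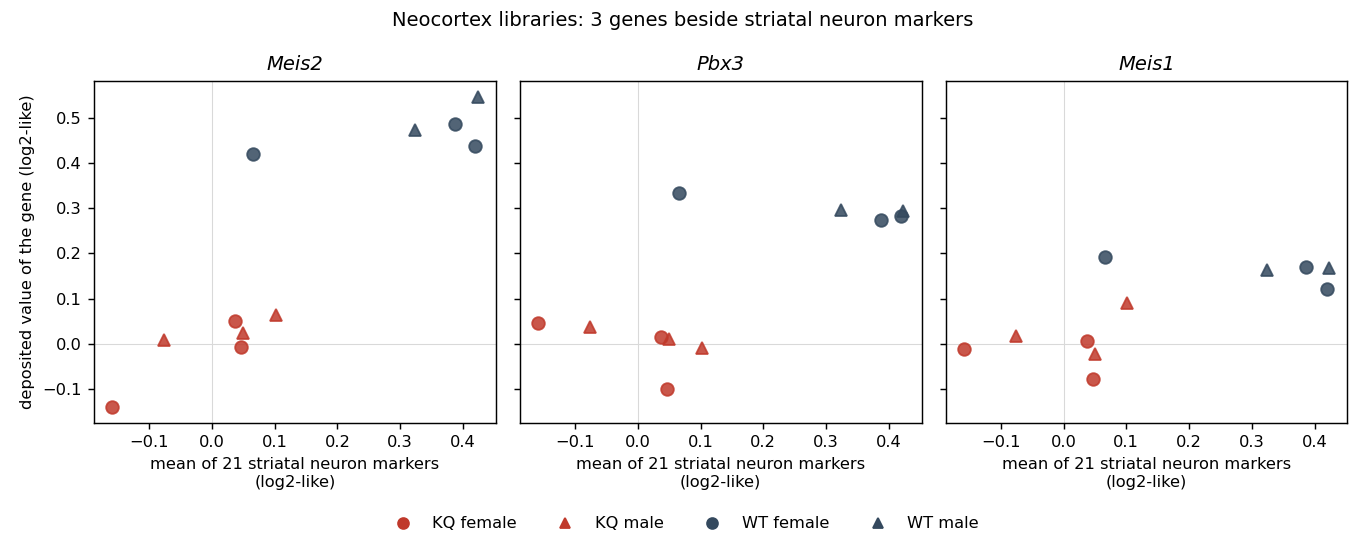
Value of Meis2, Pbx3 and Meis1 (log2-like, vertical) against the mean of 21 striatal projection neuron markers (log2-like, horizontal) in each of the 11 neocortex libraries, circles for females and triangles for males. WT female 1, a single library, is the WT circle at a marker mean of 0.065. WT male 1 stands at the WT means through removal of litter and is no separate point. The part of striatal cells was not tested.

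By the median, markers of other neurons differed less. Of 14 interneuron markers 10 lay below 0 in KQ neocortex relative to WT (median -0.15, none called), and their mean per library ran from -0.069 to 0.033 in KQ and from 0.094 to 0.15 in WT. These interneuron means thus did not overlap between genotypes, whereas the striatal marker means did (up to 0.10 in KQ, from 0.065 in WT). Of 12 neocortical excitatory neuron markers 9 lay above 0 there (median 0.11, none called). Olfactory bulb and neuroblast markers lay below 0 in 6 of 8 (median -0.18, none called), with overlapping means of -0.19 to 0.24 in KQ and -0.041 to 0.32 in WT. The part of these other cell types in the Meis2, Pbx3 and Meis1 values was not tested.

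Of 22 partners and lineage regulators that work with MEIS and PBX proteins or mark the same lineages, 12 were lower and 6 higher in hippocampus than in neocortex. Over all genes tested 22.9% were lower and 23.9% higher. Foxp2, a regulator of striatal and deep-layer neurons, was at -2.06 ± 0.082 (adjusted p = 2.87e-11), Six3, needed for striatal neurons, at -1.35 ± 0.078 (1.72e-09), Foxp1 at -0.66 ± 0.046 (1.28e-08), and Dlx5, a gene of GABAergic neurons, at -0.51 ± 0.043 (1.21e-07). Among the 6 higher were Nr2f2 (0.83 ± 0.11, adjusted p = 1.73e-05), Etv1 (0.55 ± 0.063, 4.26e-06) and Bcl11b (0.38 ± 0.042, 2.73e-06). In neocortex 20 of the 22 lay below 0 in KQ relative to WT and none was called (median -0.11, 9 with an unadjusted p under 0.05, as had 13.7% of all genes), with Six3 at -0.36 ± 0.077 (adjusted p = 0.178) and Dlx5 at -0.19 ± 0.055 (0.254). Foxp4 (0.22 ± 0.063, adjusted p = 0.254) and Nr2f2 (0.047 ± 0.13, 0.886) lay above 0. Over all genes 51.5% lay below 0. In hippocampus 13 lay above 0 and 9 below in KQ relative to WT, none called. Six3 was above 0 there, at 0.42 ± 0.14 (adjusted p = 0.332).

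The retinoic acid pathway was split between regions, with 4 of 16 genes lower and 6 higher in hippocampus. The receptors Rarb (-1.47 ± 0.056, adjusted p = 1.89e-11) and Rxrg (-1.35 ± 0.060, 1.05e-10) and the binding protein gene Crabp1 (-0.34 ± 0.038, 2.77e-06) were lower, and Rdh10, an enzyme of retinoic acid synthesis, was higher (0.27 ± 0.039, 4.49e-05). In neocortex Rarb was at -0.35 ± 0.080 (adjusted p = 0.183) and Rxrg at -0.34 ± 0.088 (0.219) in KQ relative to WT, and of the 16 genes 11 lay below 0 with none called. In hippocampus 11 lay above 0 and none was called.

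Relatives outside the 8 genes gave little. Of 9 other TALE genes (Irx, Tgif and Mkx), 8 were tested in neocortex and 9 in hippocampus, and none was called between genotypes in either. Between regions Mkx was lower in hippocampus (-0.52 ± 0.047, adjusted p = 3.24e-07), and Irx5 (0.16 ± 0.049, 0.0127) and Tgif1 (0.14 ± 0.045, 0.0181) were higher. Of 39 Hox genes in the table, the partners of MEIS and PBX elsewhere in the body, only 7 passed the filter in neocortex, 10 in hippocampus and 5 in both, and none was called in any comparison.

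Likeness of pattern was measured by Pearson r across libraries, as a description with no test. Over the 11 neocortex libraries, which share the genotype split, the genes most like Meis2 were BC030500 (r = 0.98), Zfp180 (0.97), Pkib (0.97), Gid4 (0.97) and Hs3st1 (0.96). Those most like Pbx3 there were Cluap1 (0.98), Fut10 (0.98), Alox5 (0.98), Sox2 (0.97) and Tmed5 (0.97). Meis2 had r = 0.92 with Pbx3 and 0.90 with Meis1, and Pbx3 had r = 0.92 with Meis1.

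With the mean of each region and genotype taken off, over 20 libraries, other genes stood near Meis2, among them Necab1 (0.86), Paqr6 (0.86), Phactr1 (0.85) and Bmp3 (0.85). Next to Pbx3 stood Lyplal1 (0.89), Tmem209 (0.87), Mettl5 (0.86), Bcl10 (0.84) and Zc3hav1 (0.83). Meis2 had r = 0.38 with Pbx3 in this measure, against 0.69 with Meis1 and 0.60 with Pknox2. The libraries share litters, and probably mice among the females, so these r values do not come from independent points.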

How the data were processed

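Per the labels, 20 bulk libraries of total RNA were grouped by region, genotype, sex and litter. The authors used cutadapt for trimming, STAR 2.5.2b for alignment to mm10, Salmon for transcript abundance and DESeq2 1.34.0 under R 4.1.0. What they deposited is a log2-like table, a variance-stabilizing transformation from which sex and litter were removed with limma. Such values understate the change of low genes. The largest sex or litter coefficient left was 4.76e-08. Of 24528 genes, 4383 had 1 value throughout.

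For the present values limma 3.58.1 with statmod 1.5.0 was run in R 4.3.3, and tables and plots were made with pandas 2.3.3 and matplotlib 3.10.9 in Python 3.11.15. Each region was fitted with genotype, sex and litter (4 residual degrees of freedom in neocortex, 3 in hippocampus), and both regions together with 4 groups, sex and litter (11). Refitting sex and litter counts the degrees of freedom that their removal cost. Tests were two-sided, with Benjamini-Hochberg adjustment, a threshold of 0.05 and 95% intervals. Genes constant throughout, or tied within 1e-06 in all 3 libraries of a sex and litter, were left out. The fits were tested on simulated data. The labels do not state that the libraries of a region are from separate mice, and p-values measure the spread between these libraries. The members, gene lists and tests were chosen with earlier results of these data known. Genes named are the 8 members, Tardbp, up to 5 genes by p per list past the threshold in a fit, and the 5 most like Meis2 or Pbx3, of which some are not reported here. Alternatives were other terms, replicate blocks, robust variance, no filter, median centring and omission of each library.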

Additional observations from a re-analysis of the deposited data

Results flagged for a closer look

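Of 32 groups of libraries examined (8 genes in 4 groups of region and genotype), 2 held a library far from the others of its group by Dixon's criterion, and chance gives about 1 in 20 such groups. Meis1 in the WT hippocampus was at -0.71 in male 1, against -0.61 for the nearest of the 4 libraries. That male is the only WT male of the hippocampus, and its mean of choroid plexus markers was 2.05, the highest of the WT hippocampus. Meis2 in the KQ neocortex was at -0.14 in female 2, against -0.0081 for the nearest of the 6 libraries. That female is alone in its litter in the neocortex, so it does not enter the fitted genotype difference there. The only other library of that litter is its hippocampus counterpart, and removal of litter set their deviations equal and opposite. The flag therefore cannot be placed in the neocortex library alone.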

How the results depend on the processing

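Meis1, Meis2, Pbx3 and Pknox2 were lower in hippocampus than in neocortex in 28 of 28 alternative fits, Meis3 in 27 of 28, and Pknox1 passed the threshold in 8 of 28. Pknox1 passed it when 1 of 5 libraries was left out (neocortex KQ female 2, KQ male 1 or WT male 2, hippocampus KQ female 2 or WT female 3), with an adjusted p of 0.0283 to 0.136 over all omissions in limma. Meis3 missed it in the WT contrast alone. Members called between regions numbered 4 to 6 (5 to 6 when a library was left out). In hippocampus none of the 8 genes was called between genotypes in 17 of 17 alternatives, so the signs that follow are those of values that missed the threshold. Meis1 in hippocampus KQ minus WT was -0.0072 with genotype alone and with both regions in 1 fit, -0.00026 with genotype and sex, and -0.0015 with litter as a random effect, against 0.010 with litter fixed. When each library was left out in turn, the hippocampus difference in KQ relative to WT ran from -0.32 to -0.023 for Meis2, -0.040 to 0.061 for Meis1, -0.12 to 0.056 for Meis3, -0.080 to 0.0048 for Pbx2, -0.19 to 0.050 for Pbx3 and -0.021 to 0.037 for Pknox1, and that of Pbx2 between regions from -0.053 to 0.0013. Without the WT male the hippocampus difference rests on KQ female 1 as the only KQ library that informs it, and without KQ female 1 on the WT male as the only such WT library, each assumed to vary like the others. In neocortex the same omission gave -0.48 to -0.45 for Meis2, -0.35 to -0.27 for Pbx3, -0.22 to -0.13 for Meis1 and -0.11 to 0.13 for Pbx2.

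Replicate numbers were not shown to pair libraries: deviations of same-numbered KQ and WT libraries correlated by -0.60 to 0.12, and those of 5 female pairs across regions by -0.69 to 0.72, the pair of KQ female 2 being left out because its litter term fixes its value. Removal of litter makes deviations cancel within each litter, so these correlations cannot decide whether libraries are paired. With the replicate block Meis2 was -0.47 ± 0.049 in neocortex and -0.13 ± 0.12 in hippocampus (limma, adjusted p = 0.660). With the female mouse as a replicate block Meis2 was -1.20 ± 0.054 between regions (adjusted p = 9.27e-11), and Pknox1 passed the threshold (-0.090 ± 0.035, adjusted p = 0.0414). In female libraries alone, with the mouse as a fixed replicate block, Pknox1 missed it (-0.094, adjusted p = 0.137) and 5 genes were called. Neither block changed another call. Small differences of Pbx2, Pbx4 and Pknox1 cannot be told from 0 with this many libraries.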
